A study of Mus musculus with 2 samples.

Results

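Blood clotting in the liver of mice with and without adiponectin was examined through 36 genes of coagulation and fibrinolysis, taken by symbol from a fixed list. Of these, 30 had a row in the expression tables, which together held 13326 gene symbols, and all 30 passed the minimum of 1 FPKM in at least 1 library. The genes F13a1, Thbd, Procr, Plat, Plau and Plaur were not analysed here. Liver RNA came from male C57BL/6J mice aged 12 weeks and fasted overnight, either wild type or Adipoq-/-, in which the gene of the fat cell hormone adiponectin is knocked out. For each genotype, RNA of 9 to 10 mice was pooled into 1 sequencing library, so the comparison holds 2 libraries and no replicate. The labels do not say how the allele was made. Adipoq itself was not analysed here, and no check of the genotype on the targeted gene was made.

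Most plasma proteins of clotting are made by hepatocytes and secreted as inactive precursors. Tissue factor and factor VII start the cascade, the contact proteins can start it from a charged surface, and both routes lead through factor X to thrombin, which cuts fibrinogen into fibrin. Several of the proteases need vitamin K for a modification of their glutamate residues. Plasmin, made from plasminogen, dissolves the clot. The endothelium carries inhibitors and receptors of the cascade and makes factor VIII and von Willebrand factor.

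Values are FPKM, fragment numbers corrected for the length of the transcript and for the size of the library. How the 2 libraries were scaled to each other is not stated in the sources used here. FPKM is a level per length, so levels can be set beside each other between genes. The comparison between libraries is the log2 of (Adipoq-/- FPKM + 1) over (wild-type FPKM + 1), a scale on which low genes appear closer than they are. Over the 11985 genes that reached 1 FPKM in either library, its median was -0.15. A relative log2 ratio is the ratio minus that median, and "higher" or "lower" without further words refers to it. Where 2 levels follow each other, the wild-type library comes first, and a signed value in brackets is the relative log2 ratio. Because each genotype is 1 library, no difference below has a test or an error from replicates. Sequencing depth is unknown. Summed FPKM was 798170 in wild type against 891964 in the Adipoq-/- library. The liver label was checked on 8 hepatocyte markers, all of which were measured, with albumin (Alb) at 17522 FPKM in wild type against 14031 in the Adipoq-/- library.

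The clotting genes spanned the range from barely detected to among the most abundant liver transcripts. The fibrinogen beta chain gene Fgb led them in both libraries and was the gene of rank 56 in wild type against 67 in the Adipoq-/- library. At the other end, F3 and Vwf lay under 1 FPKM in the Adipoq-/- library. Of the 30 genes, 16 averaged 100 FPKM or more, 8 lay between 10 and 100, and 6 lay under 10. Their share of summed FPKM was 1.21% in wild type against 0.981% in the Adipoq-/- library.

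**Figure D1:**
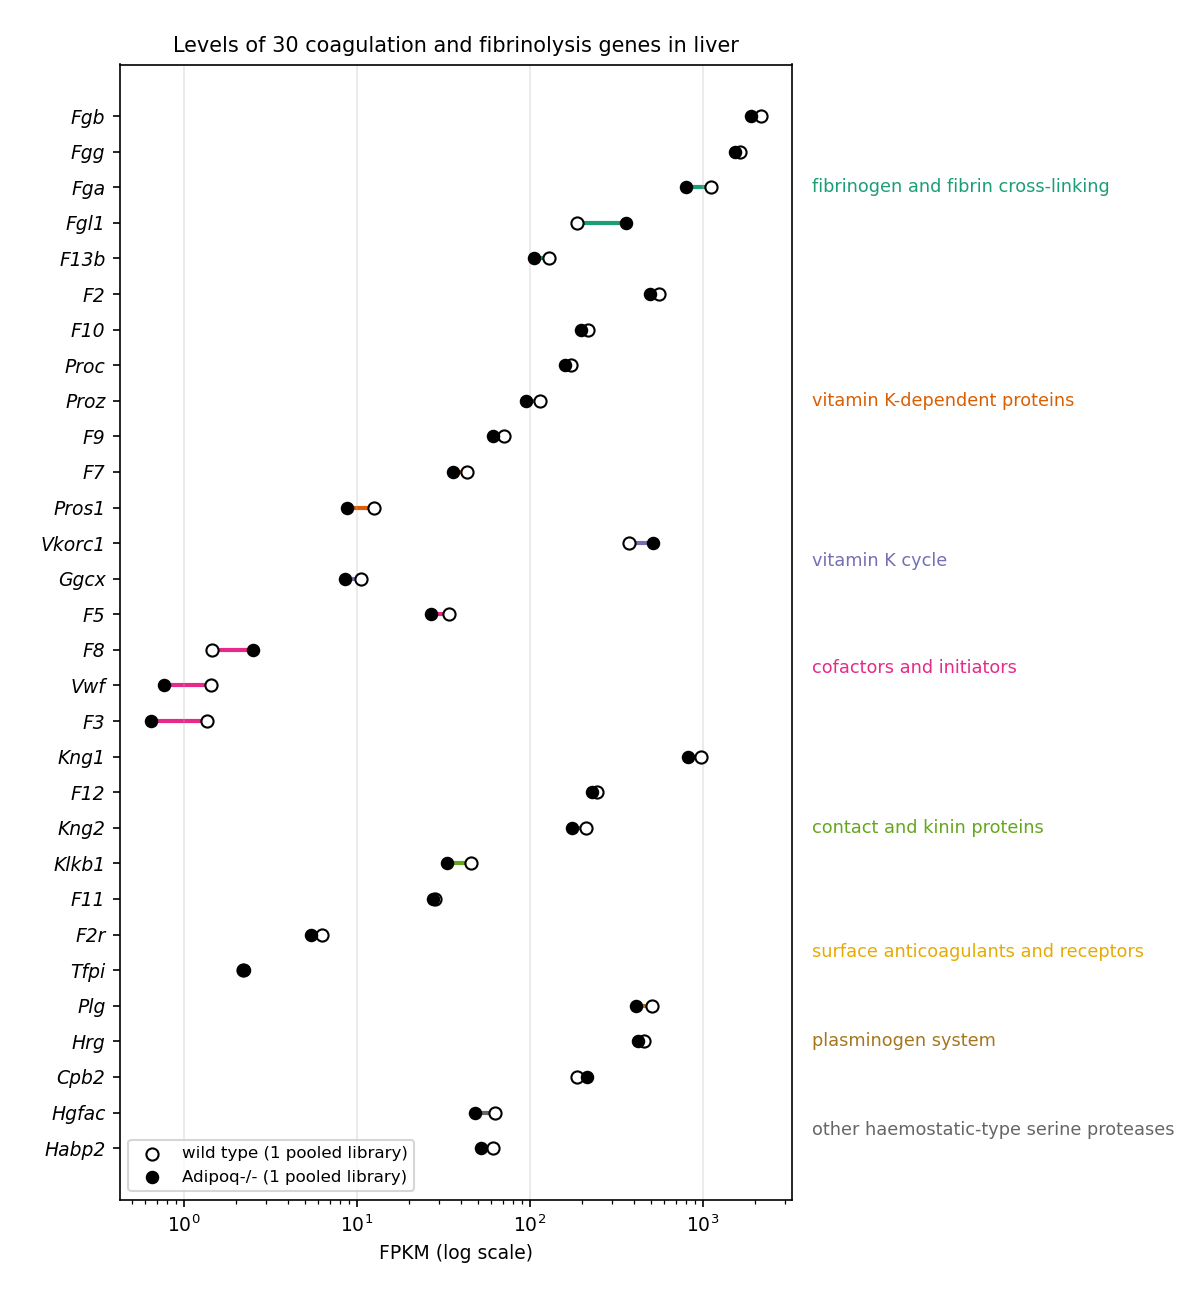
FPKM of the 30 coagulation and fibrinolysis genes on a log axis, grouped by role, with an open circle for the wild-type and a filled circle for the Adipoq-/- library (1 pooled library each, no error bars). Most filled circles lie slightly left of the open ones. Those of F3 and Vwf lie clearly to the left, and those of Fgl1, Vkorc1 and F8 clearly to the right.

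As a group, the clotting genes stayed close to the centre of all genes. Their median relative log2 ratio was -0.06, with single genes between -0.37 and 1.09. On the relative scale 11 of the 30 lay above the all-gene median, where 50.0% of all genes lie by construction. Of the 24 members averaging 10 FPKM or more, 9 lay above it, beside 60.5% of all genes at that level. On the values as deposited, 25 of the 30 were lower in the Adipoq-/- library, beside 66.9% of all genes. Of the same 24 members, 21 were lower as deposited, beside 55.9% of genes averaging 10 FPKM or more. The split between higher and lower members depended on scaling. It was 11 above and 19 below when centred on all genes, 5 and 25 as deposited, and 4 and 26 after rescaling to equal summed FPKM. The median over all genes moved too, to -0.15 as deposited and -0.28 after that rescaling.

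Large differences were few. Relative to all genes, 3 members (Fgl1, F8 and Vkorc1) were higher by 1.5-fold or more, where 6.73% of all genes passed the same mark. Of the 24 members averaging 10 FPKM or more, 2 (Fgl1 and Vkorc1) passed it, beside 9.60% of all genes at that level. None of the 30 was at least 1.5-fold lower, a mark passed by 2.61% of all genes and by 1.92% of those averaging 10 FPKM or more. The count of 3 members of 30 is near the background share, so it does not set the clotting genes apart. This split also moved with scaling and with the pseudocount. It was 1 higher and 0 lower without centring (pseudocount of 1 FPKM kept). On the plain ratio of deposited FPKM, which is also not centred and has no pseudocount, it was 2 higher (Fgl1 and F8) and 2 lower (F3 and Vwf). After rescaling to equal summed FPKM it was 1 higher and 4 lower. The shares of all genes past the mark were not counted under these settings.

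Relative to all genes, abundant genes as a whole lay higher in the Adipoq-/- library. The 1018 genes averaging 100 FPKM or more had a median relative log2 ratio of 0.26, with the middle 95% between -0.42 and 0.95. The 16 clotting genes in this class had a median of -0.003, and 13 of them lay below the class median. Only Fgl1 lay outside the middle 95% of its class. In the class from 10 to 100 FPKM the 8 clotting genes had a median of -0.14, beside 0.07 over all genes of that class, and 7 of the 8 lay below it. No member under 100 FPKM lay outside the middle 95% of its class.

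**Figure D2:**
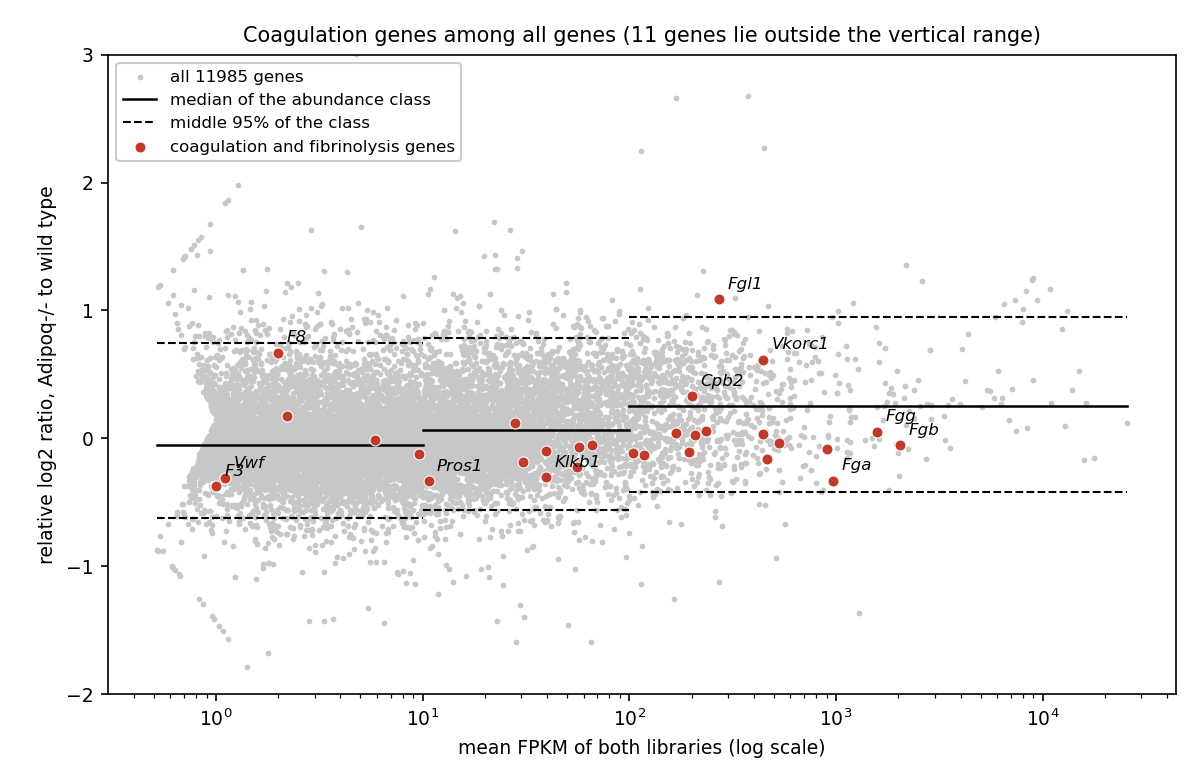
Relative log2 ratio of Adipoq-/- to wild type against mean FPKM (log axis) for 11985 genes in grey and the 30 clotting genes in red. Solid and dashed lines give the median and the middle 95% of genes in each of 3 abundance classes, and 11 genes lie beyond the vertical range. Fgl1 is the only red point outside the dashed lines, and most red points above 100 FPKM lie below the solid line.

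The 3 chains of fibrinogen, the precursor of fibrin, are encoded by Fga, Fgb and Fgg, which are direct neighbours on chromosome 3 in the RefSeq gene order (GRCm38.p6). Fga stood at 1124 FPKM in wild type against 805 in the Adipoq-/- library, 28.4% lower as deposited. Fgb stood at 2186.5 and 1896 FPKM, and Fgg at 1635 and 1528. All 3 were lower as deposited, and relative to all genes only Fga stood apart from the centre, at -0.33 beside -0.05 for Fgb and 0.05 for Fgg. Its position in the class of genes with at least 100 FPKM was low, with 4.91% of the class below it.

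The chains therefore differed in their proportions between the libraries. The level of Fga was 0.514 of that of Fgb in wild type against 0.425 in the Adipoq-/- library, whereas Fgg was 0.748 and 0.806 of Fgb. Centred on genes of similar transcript length, Fgb (0.04) and Fgg (0.03) lay together, and Fga was at -0.29. The sum of the 3 chains was 0.620% of summed FPKM in wild type against 0.474% in the Adipoq-/- library. Leaving out the major urinary protein genes (symbols of Mup and a number), which took 9.04% and 15.1% of summed FPKM, the shares of the chains were 0.681% and 0.559%.

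The stretches upstream of the 3 chain genes are shown because the genes are neighbours and are known to be expressed together in hepatocytes, while Fga differed from the other chains here. Each is the 250 bases before the transcript start in the RefSeq promoter table, 5′ to 3′ in the direction of transcription. Fga is at chr3:83025903-83026152 on the plus strand, Fgb at chr3:83049864-83050113 on the minus strand and Fgg at chr3:83007474-83007723 on the plus strand, all GRCm38.p6. Capitals mark matches on either strand to a C/EBP motif (TTGCNNAA), an HNF4-type motif (CAAAGTCCA) or a STAT motif (TTCNNNGAA, added after the values were seen).
Fga: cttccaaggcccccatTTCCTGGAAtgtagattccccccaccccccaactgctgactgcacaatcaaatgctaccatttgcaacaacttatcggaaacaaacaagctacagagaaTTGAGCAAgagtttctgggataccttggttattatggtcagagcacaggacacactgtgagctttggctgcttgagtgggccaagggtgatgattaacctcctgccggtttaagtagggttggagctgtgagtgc
Fgb: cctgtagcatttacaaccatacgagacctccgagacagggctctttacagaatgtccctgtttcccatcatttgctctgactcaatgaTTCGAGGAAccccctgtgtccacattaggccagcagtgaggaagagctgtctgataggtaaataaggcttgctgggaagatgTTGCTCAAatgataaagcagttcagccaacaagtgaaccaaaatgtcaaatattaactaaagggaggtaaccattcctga
Fgg: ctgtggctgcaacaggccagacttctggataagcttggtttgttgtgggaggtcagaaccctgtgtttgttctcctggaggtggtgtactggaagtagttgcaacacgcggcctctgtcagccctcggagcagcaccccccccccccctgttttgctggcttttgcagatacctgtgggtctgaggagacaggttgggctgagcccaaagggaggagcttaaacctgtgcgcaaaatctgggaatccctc

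In Fga and in Fgb there was 1 match each to the STAT and C/EBP motifs, in that order towards the start. No match was found in the Fgg window. None of the matches overlapped another. A promoter window was available for 25 of the 30 measured members (26 windows). The C/EBP motif stood in 9 of these 25 members (Fga, Fgb, F9, F11, Ggcx, Habp2, Hrg, Klkb1 and Kng2), beside 8.19% of 9163 windows of compared genes, the STAT motif in 5 of 25, beside 5.88%, and the HNF4-type motif in 0 of 25, beside 0.491%. These are matches of letters, not measured binding sites.

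Fgl1 encodes a liver-secreted protein related to the fibrinogen chains that is not part of the clot matrix. It stood at 187 FPKM in wild type against 358 in the Adipoq-/- library, 1.92-fold higher as deposited, with a relative log2 ratio of 1.09. It was the member farthest from the all-gene median and ranked 15 of 1018 among genes with at least 100 FPKM. It stayed at least 1.5-fold higher under each of 11 alternative settings, between 0.78 and 1.17. In bulk tissue, a difference in the number of cells making a transcript and one in its RNA per cell cannot be told apart. F13b, the carrier subunit of the fibrin cross-linking factor XIII, stood at 129 and 106 FPKM (-0.13).

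Fibrinogen and Fgl1 are known as acute phase genes, induced in hepatocytes through interleukin-6 and STAT3, so they were set beside 10 other acute phase genes. Of those 10, 9 had a positive relative ratio and 6 passed 1.5-fold upwards, with a list median of 0.71. Over all genes, 50.0% lay above 0 and 6.73% passed the same mark. All of the list but Lcn2 averaged 100 FPKM or more. In that class of 1018 genes, 734 lay above 0 and 187 passed the mark. Farthest of the 10 listed genes were the serum amyloid genes Saa1 (110 and 636 FPKM) and Saa2 (49.3 and 286). The lipocalin Lcn2 (3.66 and 6.99 FPKM), the orosomucoids Orm2 (247 and 397) and Orm1 (900.3 and 1339) and hemopexin (Hpx, 1401 and 2055) followed. Haptoglobin (Hp) stood at 1072 and 1253 FPKM, and ceruloplasmin (Cp) at 251 and 201. Fgl1 thus lay with the higher members of this list in value, and Fga, Fgb and Fgg lay near or below its lowest members, Itih3 (0.01) and Cp (-0.16). Saa1 was 0.0501 of the level of Fgb in wild type against 0.335 in the Adipoq-/- library.

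**Figure D3:**
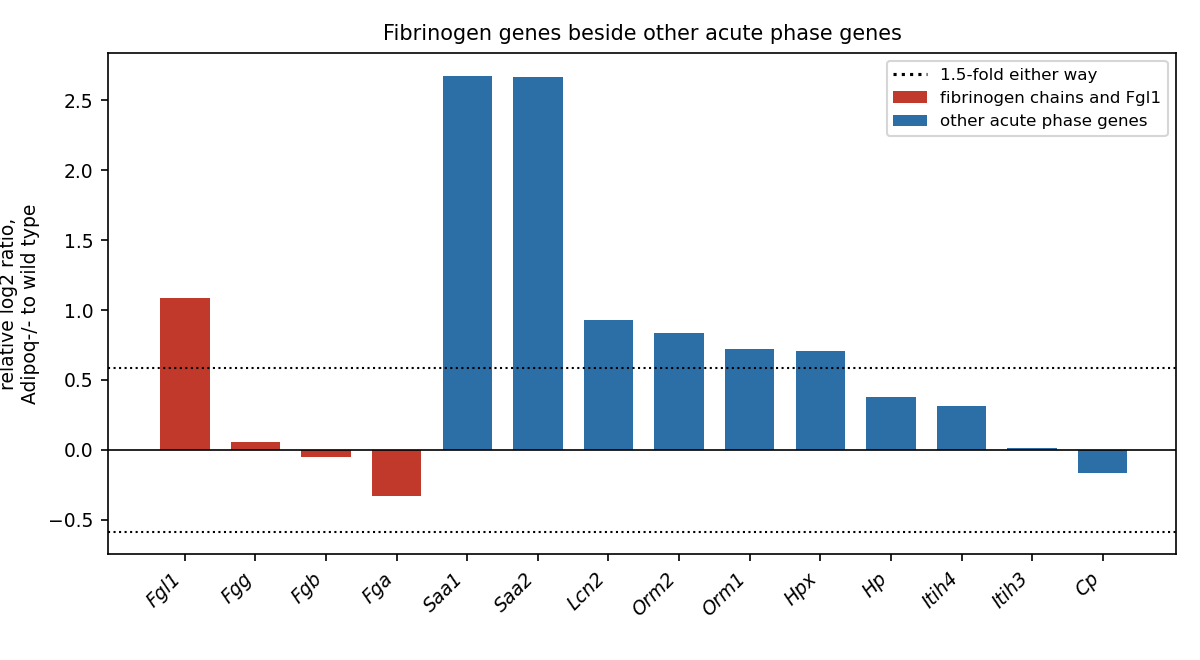
Relative log2 ratio of Adipoq-/- to wild type (bars from 0, the all-gene median) for Fgl1 and the 3 fibrinogen chain genes in red and 10 other acute phase genes in blue, with dotted lines at 1.5-fold either way. Fgl1 at 1.09 lies with the higher blue bars, while Fgg (0.05), Fgb (-0.05) and Fga (-0.33) do not.

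Genes of the interleukin-6 pathway itself were near the centre. The receptor gene Il6ra stood at 1.59 FPKM in wild type against 1.78 in the Adipoq-/- library, its partner Il6st at 12.3 and 10.9, the kinase Jak1 at 9.48 and 6.83, Stat3 at 37.7 and 32.2, and the feedback inhibitor Socs3 at 1.25 and 0.997. None of the 5 was 1.5-fold apart. Among 9 liver transcription factors, 8 lay below the all-gene median, with a list median of -0.18. The farthest were the xenobiotic receptor Nr1i3 (43.2 and 26.1 FPKM, -0.55) and the pioneer factor Foxa2 (6.11 and 3.92 FPKM, -0.38).

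The 7 vitamin K-dependent genes lay close together, and all 7 were lower as deposited. Prothrombin (F2), the precursor of thrombin, stood at 562 FPKM in wild type against 494 in the Adipoq-/- library (-0.03). Factor X (F10), which activates it, stood at 216 and 198 (0.03), factor IX (F9) at 70.8 and 61.2 (-0.06), and factor VII (F7), the partner of tissue factor, at 43.2 and 36.1 (-0.10). Of these genes, 6 had relative log2 ratios between -0.11 and 0.04. The anticoagulant protease protein C (Proc) was 174 and 161 FPKM (0.04).

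Pros1 was the exception among them. It encodes protein S, the cofactor of protein C, and stood at 12.6 and 8.75 FPKM, with a relative log2 ratio of -0.33 and 9.82% of the genes between 10 and 100 FPKM below it. F7, F10 and Proz are direct neighbours on chromosome 8, and their ratios lay within -0.11 to 0.03.

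Protein Z (Proz) and its partner pointed in different directions. Proz, a cofactor for the inhibition of factor Xa, stood at 114 FPKM in wild type against 94.9 in the Adipoq-/- library (-0.11). Serpina10, which encodes the protein Z-dependent protease inhibitor, stood at 119 and 161 FPKM (0.59), 1.36-fold higher as deposited. It lay just past the 1.5-fold mark of 0.58 and inside the range of its abundance class, with 82.4% of that class below it. Over 11 alternatives it lay between 0.28 and 0.66 and passed the mark in 5.

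The pair of enzymes that supply vitamin K-dependent carboxylation also separated. Vkorc1, the vitamin K epoxide reductase and target of warfarin, stood at 373 FPKM in wild type against 515 in the Adipoq-/- library, 1.38-fold higher as deposited, with a relative log2 ratio of 0.62. Ggcx, the carboxylase that uses the reduced vitamin, stood at 10.6 and 8.59 FPKM (-0.12). The level of Vkorc1 was 35.2 times that of Ggcx in wild type and 59.9 times in the Adipoq-/- library. The longest Vkorc1 transcript is 748 bases, and short transcripts had higher ratios across all genes (Spearman rho -0.42 between ratio and transcript length over 11571 genes, which are not independent replicates). Centred on genes of similar length, Vkorc1 was at 0.27 and no longer 1.5-fold apart. It stayed past 1.5-fold in 4 of 11 alternatives and above 0 in all 11. The related reductase Vkorc1l1 stood at 5.23 and 3.43 FPKM (-0.34).

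**Figure D4:**
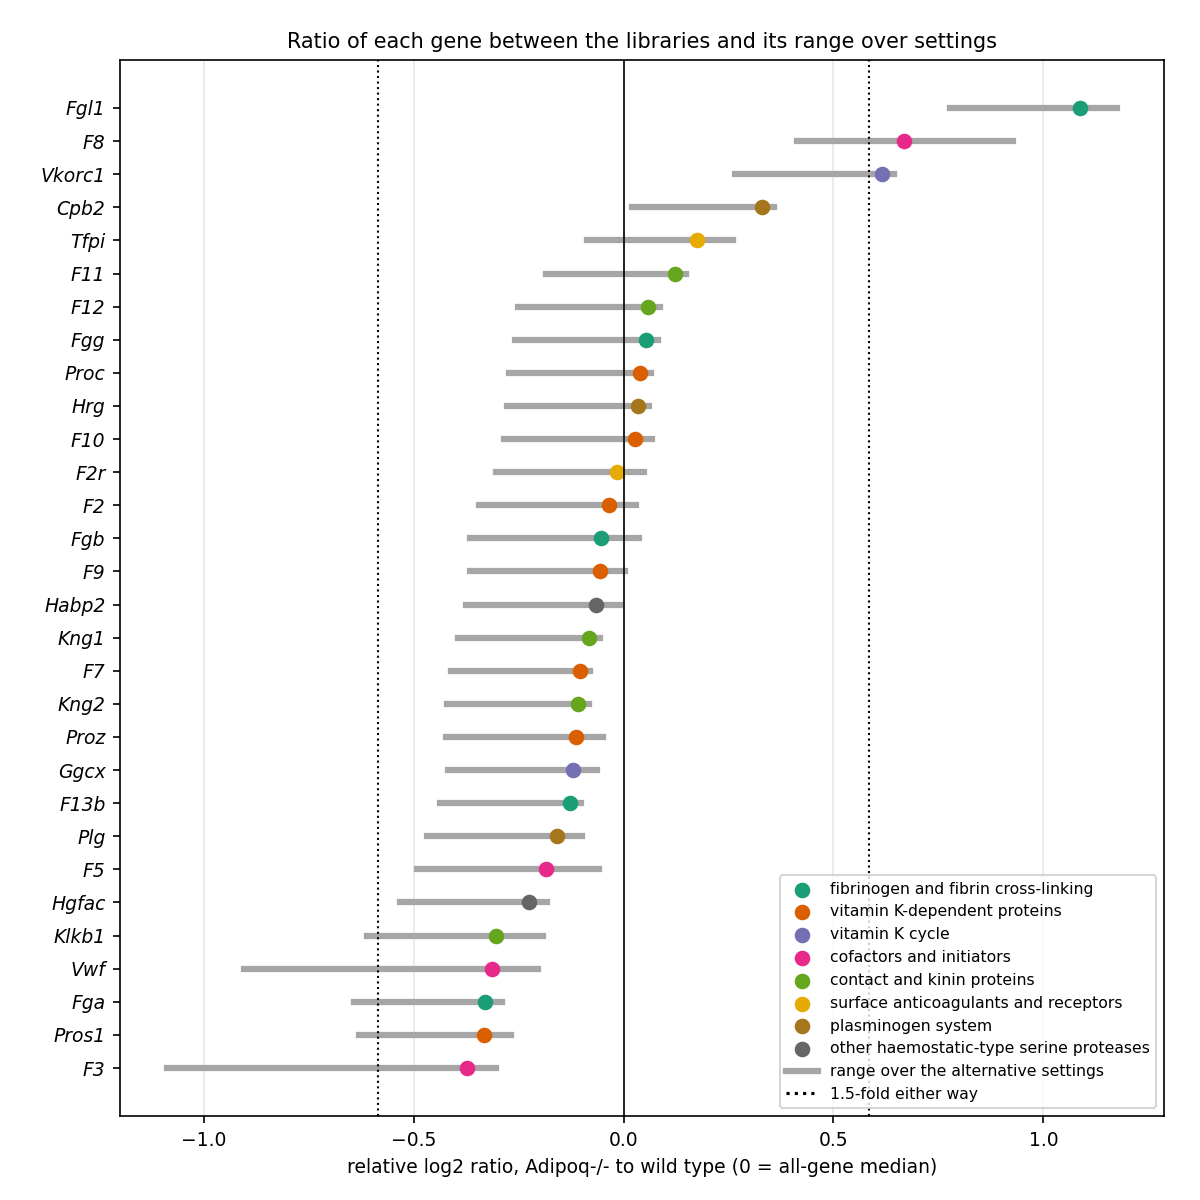
Relative log2 ratio of Adipoq-/- to wild type for each of the 30 genes (points, coloured by role) with the range over the alternative settings (grey bars) and dotted lines at 1.5-fold either way. The whole bar of Fgl1 lies beyond the upper line, and those of F8 and Vkorc1 cross it. The bars of F3, Vwf, Fga, Pros1 and Klkb1 cross the lower line. Most other bars span values on the lower side of 0.

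The cofactors and initiators were low in liver apart from factor V, and their values did not share a direction. F5, the cofactor of factor Xa, stood at 34.1 FPKM in wild type against 26.8 in the Adipoq-/- library (-0.18). F8, the cofactor of factor IXa, stood at 1.46 and 2.53 FPKM, with a relative log2 ratio of 0.67. Vwf, whose product carries factor VIII in plasma, stood at 1.44 and 0.769 FPKM (-0.31), and F3, tissue factor, at 1.36 and 0.643 FPKM (-0.37). F8 was thus the higher and Vwf the lower of the pair in the Adipoq-/- library, although both are known as endothelial products.

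These levels are the lowest of the set, and the pseudocount moved their ratios the most. With a pseudocount of 0.1 FPKM in place of 1, F8 was at 0.93, F3 at -0.80 and Vwf at -0.65, so that F3 and Vwf passed the 1.5-fold mark. On the plain ratio of deposited FPKM, F8 was 1.73-fold higher, and F3 and Vwf were 2.12-fold and 1.87-fold lower. F8 passed the mark in 7 of the 10 alternatives that kept it. All 12 endothelial markers were measured, with a summed level of 86.4 FPKM in wild type against 91.7 in the Adipoq-/- library. Of them 8 lay above the all-gene median and 0 were 1.5-fold apart, with Oit3 (9.09 and 11.6 FPKM) and Clec4g (38.2 and 42.9) farthest from 0. As deposited, however, 8 of the 12 were lower in the Adipoq-/- library and 4 were higher. Oit3 and Clec4g were among those 4, so the higher sum does not describe most of these markers. Of 8 platelet and megakaryocyte markers, 3 were measured (Itga2b, 0.43, Ppbp, 0.25, and Pf4, 0.17), with a sum of 5.51 and 6.36 FPKM.

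Genes of the contact and kinin system were all lower as deposited and none was 1.5-fold apart. Factor XII (F12), which starts contact activation, stood at 243 FPKM in wild type against 228 in the Adipoq-/- library (0.06), and factor XI (F11) at 28.4 and 27.8 (0.12). Plasma prekallikrein (Klkb1), the neighbour of F11 on chromosome 8, stood at 45.9 and 33.2 FPKM (-0.30), 27.7% lower as deposited. Adjacent genes thus had different ratios here. Centred on genes of similar transcript length, F11 was at 0.13 and Klkb1 at -0.19.

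The kininogens carry bradykinin, which plasma kallikrein releases. Kng1 stood at 973 FPKM in wild type against 827 in the Adipoq-/- library (-0.08), and Kng2 at 212 and 177 (-0.11). They are close paralogs, and reads may be hard to assign between them. The level of Kng2 relative to Kng1 was 0.217 in wild type against 0.214 in the Adipoq-/- library. The carboxypeptidase subunits that inactivate kinins were also lower as deposited, Cpn1 at 122 and 97.8 FPKM (-0.17) and Cpn2 at 37.4 and 30.03 (-0.16).

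Kng1, Kng2 and Hrg lie near the targeted locus. In the RefSeq gene order (GRCm38.p6) of chromosome 16, 2 protein-coding genes stand between Kng1 and Adipoq, 3 between Kng2 and Adipoq, and 4 between Hrg and Adipoq. Hrg, the histidine-rich glycoprotein that binds plasminogen and heparin, stood at 459 and 423 FPKM (0.03). The genes nearest to Adipoq on either side were Rfc4 (4.02 and 2.43 FPKM, -0.40) and St6gal1 (26.5 and 21.1, -0.16), chosen after their values were seen. Next to Rfc4 was Eif4a2 (220.2 and 204, 0.04), and beyond Hrg came Fetub (184 and 157, -0.08) and Ahsg (3428 and 3829, 0.31). On the relative scale none of these genes was 1.5-fold apart. As plain deposited FPKM, without pseudocount or centring, Rfc4 was more than 1.5-fold lower in the Adipoq-/- library. Its level is low, where the pseudocount draws ratios towards 0.

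In the plasminogen system, the precursor and its brake differed in direction. Plasminogen (Plg) stood at 512 FPKM in wild type against 413 in the Adipoq-/- library (-0.16), 19.3% lower as deposited. Cpb2, a carboxypeptidase that slows fibrinolysis by trimming fibrin, stood at 189 and 214 FPKM (0.33) and was 1 of 5 members higher as deposited. Centred on genes of similar abundance, Cpb2 was at 0.07. Serpinf2, the plasmin inhibitor, stood at 280.2 and 232 FPKM (-0.12), and the ratio of Plg to Serpinf2 was 1.83 in wild type against 1.78 in the Adipoq-/- library.

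The surface proteins that could be measured were low. Tfpi, the inhibitor of the tissue factor complex, stood at 2.19 FPKM in wild type against 2.24 in the Adipoq-/- library (0.17). F2r, the thrombin receptor, stood at 6.26 and 5.47 FPKM (-0.01). A pair of liver serine proteases of the same protein class were lower as deposited. Hgfac, which activates hepatocyte growth factor, stood at 63.01 and 48.3 FPKM (-0.22), and Habp2, which can activate factor VII and urokinase, at 61.1 and 52.4 (-0.07).

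Other genes of the pathway were taken from 42 listed symbols, of which 26 were compared. Their median relative log2 ratio was -0.004, with 13 above and 13 below the all-gene median, 1 at least 1.5-fold higher (Serpina10, where 6.73% of all genes passed) and 0 at least 1.5-fold lower. Among 10 protease inhibitors, antithrombin (Serpinc1), the main inhibitor of thrombin, stood at 709 and 616 FPKM (-0.05), and the ratio of F2 to Serpinc1 was 0.792 in wild type against 0.802 in the Adipoq-/- library. After Serpina10, the inhibitor farthest from 0 was the murinoglobulin Mug2 (160 and 123 FPKM, -0.22). The receptors for secretion of factors V and VIII, Lman1 (30.8 and 24.1 FPKM, -0.19) and Mcfd2 (167 and 179, 0.25), had opposite signs on this scale. Mcfd2 was in the middle of its abundance class, with 49.1% of the class below it, and Lman1 had 20.5% of its class below it. The processing protease Furin stood at 26.6 and 19.3 FPKM (-0.29). Hepatocyte growth factor (Hgf) stood at 1.15 and 1.61 FPKM (0.43), and the surface protease Tmprss6 at 97.5 and 78.3 (-0.16). The complement regulator C4bp stood at 359 and 395 FPKM (0.29), with 53.4% of its abundance class below it. Gas6, a relative of protein S, stood at 5.28 and 4.76 (0.03). The plasminogen receptor subunits S100a10 (407 and 430 FPKM, 0.23) and Anxa2 (12.4 and 11.7, 0.07) lay above the all-gene median. Both were in the middle of their abundance classes, with 47.7% and 50.9% of the class below them.

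Markers of further cell types were read beside these values, since plasma protein genes are made by hepatocytes while receptors and cofactors come from other cells. Hepatocyte markers had a median of 0.004, with 4 of 8 above the all-gene median and Apoa1 (6039 and 6541 FPKM, 0.27) and Alb (-0.17) farthest from 0. Of their abundance class, 51.2% lay below Apoa1 and 12.7% below Alb. Of 12 measured Kupffer cell and macrophage markers, 10 lay above it, and as deposited 8 were higher and 4 lower. Their sum was 267 FPKM in wild type against 317 in the Adipoq-/- library. Marco (1.26 and 3.72 FPKM) and Lyz2 (72.5 and 116) were at least 1.5-fold higher, a mark passed by 6.73% of all genes. Most of the difference in the sum lay in Lyz2. Stellate markers (7 measured) summed to 183 and 173 FPKM, although 4 were higher and 3 lower as deposited. Des (0.40) and Lrat (0.27) were farthest from 0. Erythroid markers (5) summed to 11823 and 13493 FPKM, with Hba-a1 and Hbb-b1 (both 0.37) farthest. Neutrophil markers (2) summed to 22.5 and 19.4 FPKM, with S100a8 at -0.35 and S100a9 at 0.16, and cholangiocyte markers (3) to 16.2 and 23.6, with Spp1 at 0.76 and Krt19 at 0.20. Of the adipocyte markers 2 of 5 were measured, Cfd (13.3 and 2.01 FPKM) and Lipe (4.41 and 2.91), and Plin1, Lep and Adig were not analysed here. The part of these cell types in the values of the clotting genes was not tested.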

How the data were processed

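Liver messenger RNA was sequenced from 1 pooled library per genotype. The authors deposited FPKM for each symbol. The submitters' processing notes name TopHat and Cuffdiff and the builds mm9 and NCBIM37. For versions, settings, annotation and filters the sources used here give nothing. Both tables held 13352 rows, and for 26 symbols in 2 rows, none of them a member, the row of higher mean FPKM was used. At most 5 of 1298 low genes shared a log2 ratio to 3 decimals, so whole reads could not be recovered and depth is unknown.

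Ratios used a pseudocount of 1 FPKM and a minimum of 1 FPKM in at least 1 library, centred on the median of all genes. A gene past 1.5-fold was counted as higher or lower. With 1 library per genotype there was no test and no error. Members were grouped in 8 roles. All members are named, and of other lists the 2 genes farthest from 0, with all interleukin-6 and acute phase genes open to naming. Serpinf2, Serpinc1, Mcfd2, Lman1 and the neighbours of Adipoq fall outside this rule and were chosen after their values were seen. The members and lists were chosen with earlier results of these data known. Alternatives used a pseudocount of 0.1 or 0.5 FPKM, all genes or only those reaching 5 FPKM, other scalings, centring on genes of similar abundance or transcript length (20 bins, GENCODE M21 transcripts, 96.5% of genes matched), the other row of symbols in 2 rows and, added after seeing the data, the plain FPKM ratio. A listed transcription factor and the motif for it are not reported here. Upstream sequences came from RefSeq (GRCm38.p6), matched by symbol. Python 3.11.15, numpy 2.4.6, pandas 2.3.3 and matplotlib 3.10.9 were used, and the ratio and counts were tested on simulated data.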

Additional observations from a re-analysis of the deposited data

How the results depend on the processing

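With 1 pooled library per genotype and no known depth, no value has an error, and a difference between the libraries cannot be told apart from a difference between pools. No paired analysis was possible because each genotype has 1 library. For 4 summary values under 11 alternatives, 26 of 44 values stayed within 0.1 on the log2 scale or within 1.5 times the count. Without centring (pseudocount kept), the median of the members was -0.21, with 1 at least 1.5-fold higher and 5 above 0. On the plain ratio of deposited FPKM, an alternative chosen after seeing the data, the median was -0.22, with 2 lower (F3 and Vwf) and 5 above 0. After rescaling to equal summed FPKM, the median was -0.37, with 1 higher, 4 lower (Fga, Pros1, F3 and Klkb1) and 4 above 0. With equal upper quartiles, 1 was higher and 6 lay above 0. The medians over all genes under these uncentred settings were -0.15, -0.18, -0.28 and -0.096, in that order. A part of each shift of the members was therefore shared by all genes. Centred on genes of similar abundance, the median was -0.24, with 1 lower (Fga) and 7 above 0. With a minimum of 5 FPKM, which left 26 members and dropped F3, F8, Tfpi and Vwf, 1 was higher and 7 lay above 0. With a pseudocount of 0.1 FPKM, 2 were lower (F3 and Vwf). Otherwise the cause of these shifts was not tested. Fgl1 was at least 1.5-fold higher in all 11 alternatives.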
